A study of Mus musculus with 14 samples.

Results

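The genes described here are enzymes and regulators of cholesterol and fatty acid synthesis in mouse embryonic fibroblasts. A list of 31 genes was taken from these pathways, and 30 of them had a probe set that the platform annotation assigned to that gene alone, among 19935 genes measured. Acat2 is not analysed here. A gene with several probe sets was represented by the one with the highest mean over the 14 arrays. The 30 genes fall into 6 of the mevalonate pathway, 11 that lead from squalene to cholesterol, 5 of the SREBP system with a sterol carrier, 3 of fatty acid synthesis, and 5 of fatty acid desaturation and elongation.

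The arrays are Affymetrix whole-transcript arrays of total RNA from fibroblasts of the ICR strain, grown in embryonic stem cell medium and freed of feeder cells before lysis. Cells were transduced with SKO plus HDAC7, SKO plus MEF2C, SKO plus an empty Flag vector, or GFP, and each vector was sampled at day 10 and day 6. The 3 SKO vectors had 2 arrays a day, and GFP had 1 array a day. HDAC7 is a class IIa histone deacetylase with little deacetylase activity of its own, which represses transcription by recruiting corepressors, and MEF2C is one of the transcription factors it binds. The labels do not spell out SKO, do not say which vector or promoter carried the genes, and do not say whether the 2 experiments of a group were separate cultures. P-values here cover the spread among arrays alone, and that spread may be technical.

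Cells make cholesterol from acetyl-CoA. The mevalonate pathway yields isoprenoid units, which are joined into squalene, closed into lanosterol and trimmed to cholesterol. The genes of this route are switched on by SREBP2, and those of fatty acid synthesis mainly by SREBP1. Both factors are held in the endoplasmic reticulum with the escort protein SCAP while INSIG proteins retain it, and they are released for cleavage when sterols run low. Fatty acid synthase makes saturated chains from malonyl-CoA, and elongases and desaturases then lengthen them and add double bonds.

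The factors that act on these promoters have known recognition letters, so the starts of the genes were read from RefSeq (GRCm38.p6, 250 bases before to 50 after the start). Of the 30 measured genes, 23 matched a promoter entry. On either strand, TCACNCCAC, the core of a sterol regulatory element, was found in 1 of the 23 genes (4.35%) and in 1.44% of all genes with an entry. CCAAT, the letters bound by NF-Y, was found in 19 of the 23 (82.6%) and in 41.1% of all genes. GGGCGG, bound by Sp1, was also found in 19 of the 23 (82.6%), against 38.2% of all genes, and CACGTG, an E-box, in 5 of the 23 (21.7%), against 8.09%. No match of the sterol element overlapped a CCAAT match. A match here is a description of letters and not a shown binding site.

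The promoters of 4 genes are printed because they span what was found. Hmgcs1 held the only sterol element, TCACCCCAC, which began at position -137 from the start. Idi1 and Msmo1 held CCAAT and no sterol element in this window, and Acaca held none of the 4 motifs. In the comparison of SKO+Flag with GFP described further on, 15 of the 19 genes with CCAAT were higher, and Mvk, Mvd, Fasn and Acly, which also hold it, did not pass the test. Of the 4 without it none was higher, Scap and Fads2 were lower, and Acaca and Elovl6 did not pass. The 7 measured genes without a promoter entry are outside these counts, and all were higher: Fdps, Fdft1, Sqle, Stard4, Scd1, Scd2 and Fads1. Of all genes, 17.5% were higher and 18.2% lower, and the share among all genes with CCAAT is not given here. These counts were made after the calls were known and were not tested. GGGCGG was found in as many genes, 19 of the 23, and neither it nor the E-box was set against the calls. The counts therefore do not single out CCAAT. Capitals mark TCACNCCAC and CCAAT, which reads ATTGG on the other strand. The windows are chr13:119690101-119690400 on the plus strand for Hmgcs1, chr13:8885356-8885655 on the plus strand for Idi1, chr8:64733529-64733828 on the minus strand for Msmo1, and chr11:84195188-84195487 on the plus strand for Acaca.
Hmgcs1: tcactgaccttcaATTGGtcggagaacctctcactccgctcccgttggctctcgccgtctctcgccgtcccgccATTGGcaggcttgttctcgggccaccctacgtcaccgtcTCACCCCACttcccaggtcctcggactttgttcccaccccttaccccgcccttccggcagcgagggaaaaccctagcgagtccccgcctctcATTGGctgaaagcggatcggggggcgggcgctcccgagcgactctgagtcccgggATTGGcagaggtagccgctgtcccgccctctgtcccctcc
Idi1: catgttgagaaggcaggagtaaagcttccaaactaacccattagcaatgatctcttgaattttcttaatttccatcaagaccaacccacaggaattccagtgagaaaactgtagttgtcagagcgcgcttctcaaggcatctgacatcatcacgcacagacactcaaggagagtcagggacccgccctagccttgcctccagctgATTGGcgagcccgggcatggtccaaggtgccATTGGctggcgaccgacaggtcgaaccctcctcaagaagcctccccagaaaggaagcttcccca
Msmo1: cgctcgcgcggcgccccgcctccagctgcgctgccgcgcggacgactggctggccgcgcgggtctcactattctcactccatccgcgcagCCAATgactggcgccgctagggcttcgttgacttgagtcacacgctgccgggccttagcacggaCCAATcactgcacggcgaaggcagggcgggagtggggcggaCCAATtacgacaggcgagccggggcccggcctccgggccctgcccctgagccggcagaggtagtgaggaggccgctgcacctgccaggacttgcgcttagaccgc
Acaca: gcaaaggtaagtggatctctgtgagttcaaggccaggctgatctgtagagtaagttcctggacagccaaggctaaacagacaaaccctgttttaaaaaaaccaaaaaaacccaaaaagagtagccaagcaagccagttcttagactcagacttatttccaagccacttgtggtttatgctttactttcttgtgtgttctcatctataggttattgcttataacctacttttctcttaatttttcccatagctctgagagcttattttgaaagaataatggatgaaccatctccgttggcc

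Levels are deposited log2 values, so a difference of 1 is a doubling of signal, and each gene is compared with itself across arrays. A gene was called higher or lower at an adjusted p under 0.05 in limma, with Benjamini-Hochberg adjustment over all 19935 genes. Differences are the mean of both days unless a day is named, and each ± is a standard error of the fit. A pair of GFP values is day 10 and then day 6. The GFP groups, with 1 array each, were assumed to vary like the others.

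The arrays matched their labels for HDAC7 and MEF2C, the factors that the labels name. Hdac7 lay between 11.16 and 11.38 in SKO+HDAC7 and between 6.78 and 7.44 elsewhere, and Mef2c between 9.48 and 9.93 in SKO+MEF2C and between 6.31 and 6.81 elsewhere. Pou5f1 lay between 11.7 and 12.1 in every SKO array, against 5.18 at day 10 and 5.24 at day 6 in GFP. Other reprogramming factors did not show such a difference. Sox2 lay between 5.04 and 5.37 in SKO arrays, against 5.27 and 4.93 in GFP, and Klf4 between 8.80 and 9.18, against 8.66 and 8.93. Neither passed limma's test in SKO+Flag against GFP over both days: the difference was 0.16 ± 0.07 for Sox2 (adjusted p = 0.082) and 0.17 ± 0.07 for Klf4 (adjusted p = 0.081), although Klf4 was called higher at day 10 (0.32 ± 0.10, limma adjusted p = 0.035). The array medians ranged from 5.68 to 5.76. The mean over 12 fibroblast markers was 9.24 to 9.42 in SKO+HDAC7, 9.42 to 9.50 in SKO+MEF2C and 9.32 to 9.37 in SKO+Flag, against 10.73 at day 10 and 10.24 at day 6 in GFP. The mean of the adipocyte list, over 9 genes, lay between 5.02 and 5.24 on SKO arrays and between 5.30 and 5.32 on GFP arrays. In SKO+Flag against GFP, Fabp4 and Pparg were called lower at each day, and no gene of this list was called higher.

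Most of the listed cholesterol synthesis genes were higher in SKO+Flag cells than in GFP cells. Of the genes of fatty acid chain synthesis none passed the test as the mean of both days, and Fasn was higher at day 10. In SKO+Flag against GFP, 22 of the 30 genes were higher and 2 lower (limma), where 17.5% of all genes were higher and 18.2% lower. The median difference of the 30 genes was 0.51, against -0.04 for all genes. All 11 genes from squalene to cholesterol rose, as did 4 of 6 mevalonate genes, 4 of 5 SREBP system genes and 3 of 5 desaturation and elongation genes. None of the 3 fatty acid synthesis genes passed limma's test as the mean of both days, and 1 of them, Fasn, had an unadjusted p under 0.05. At day 10, 23 genes were higher and 1 lower, where 13.7% and 13.2% of all genes were called, and the median was 0.75. At day 6, which leaves aside the day 10 GFP array, 13 were higher and 2 lower, where 13.2% and 10.8% of all genes were called, and the median was 0.25. In such bulk samples, fewer cells of a type and less RNA per cell cannot be told apart.

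**Figure D1:**
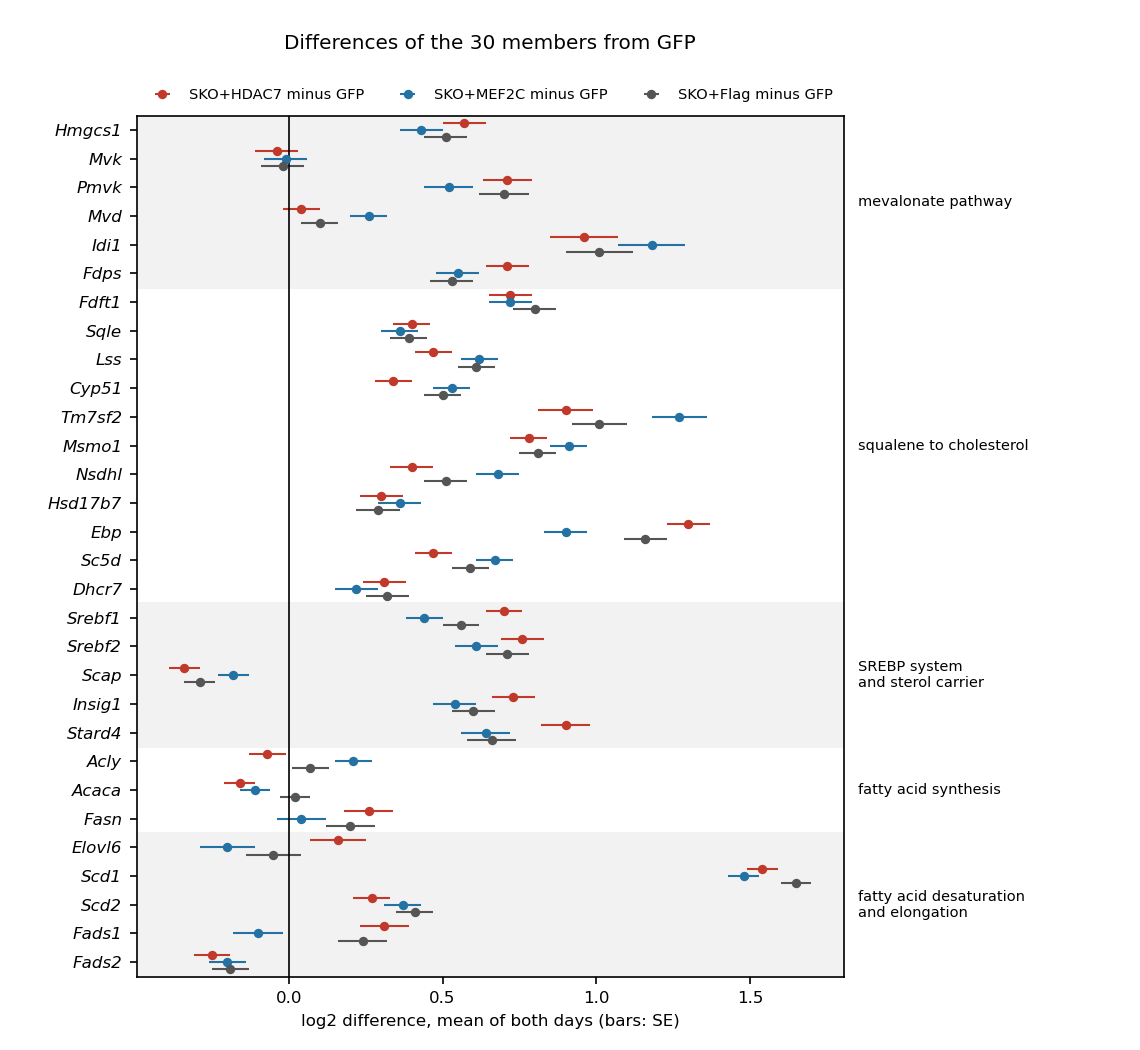
Log2 difference from GFP (horizontal axis, mean of both days, bars are SE) of each of the 30 genes in SKO+HDAC7, SKO+MEF2C and SKO+Flag, with the genes grouped by role down the page. Scd1 lies farthest to the right in all 3 vectors, the genes from squalene to cholesterol lie right of 0, and Scap and Fads2 lie left of 0.

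In the mevalonate pathway, Idi1, which isomerises isopentenyl diphosphate, had the largest difference. Idi1 measured 8.62 and 9.09 on day 10 and 9.33 and 9.17 on day 6 in SKO+Flag, against 7.58 and 8.50 in GFP. All SKO+Flag arrays were above both GFP arrays, and the difference was 1.01 ± 0.11 (2.02-fold, limma adjusted p = 2.4e-05). A second Idi1 probe set averaged 8.76 in SKO+Flag and 7.76 in GFP. Pmvk, phosphomevalonate kinase, measured 7.51 and 7.38 on day 10 and 7.40 and 7.61 on day 6 in SKO+Flag, against 6.64 and 6.90 in GFP. These groups did not overlap either (0.70 ± 0.08, limma adjusted p = 3.3e-05). Fdps, farnesyl diphosphate synthase, was 0.53 ± 0.07 higher, and Hmgcs1, the synthase that makes HMG-CoA, was 0.51 ± 0.07 higher. Mvk, mevalonate kinase, had a difference of -0.02 ± 0.07, and Mvd, which decarboxylates mevalonate diphosphate, had 0.10 ± 0.06; neither passed the test.

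From squalene to cholesterol the differences from GFP ranged from 0.29 to 1.16. Ebp, the sterol isomerase, measured 8.70 and 8.67 on day 10 and 8.38 and 8.48 on day 6 in SKO+Flag, against 7.35 and 7.44 in GFP. The groups were far apart (1.16 ± 0.07, 2.24-fold, limma adjusted p = 1.8e-07). Tm7sf2, a sterol C14-reductase, measured 7.99 and 7.89 on day 10 and 7.98 and 8.04 on day 6 in SKO+Flag, against 6.85 and 7.08 in GFP (1.01 ± 0.09, 2.01-fold, limma adjusted p = 3.1e-06). Msmo1, the methylsterol oxidase, measured 10.60 and 10.74 on day 10 and 10.90 and 10.82 on day 6 in SKO+Flag, against 9.50 and 10.41 in GFP. Its GFP values were spread widely and yet both were below every SKO+Flag value (0.81 ± 0.06, limma adjusted p = 1.3e-06). Fdft1, squalene synthase, measured 10.18 and 10.16 on day 10 and 10.22 and 10.05 on day 6 in SKO+Flag, against 9.04 and 9.67 in GFP. The difference of Fdft1 was 0.80 ± 0.07 without overlap, and its second probe set averaged 9.64 in SKO+Flag and 8.77 in GFP. Smaller differences were found for Lss, lanosterol synthase (0.61 ± 0.06), Sc5d, the sterol C5-desaturase (0.59 ± 0.06), and Nsdhl, which takes part in sterol C4-demethylation (0.51 ± 0.07). Cyp51, the lanosterol demethylase, was 0.50 ± 0.06 higher, Sqle, squalene epoxidase, 0.39 ± 0.06, Dhcr7, the last reductase of the route, 0.32 ± 0.07, and Hsd17b7, a ketosteroid reductase, 0.29 ± 0.07. For Sqle and Hsd17b7 the SKO+Flag and GFP ranges overlapped over both days.

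Within the SREBP system both transcription factor genes were higher in SKO+Flag and their escort was lower. Srebf2 measured 9.14 and 9.12 on day 10 and 8.92 and 9.0 on day 6 in SKO+Flag, against 8.29 and 8.39 in GFP (0.71 ± 0.07, limma adjusted p = 7.2e-06). Srebf1 measured 8.0 and 8.06 on day 10 and 7.75 and 7.82 on day 6 in SKO+Flag, against 7.29 and 7.40 in GFP (0.56 ± 0.06, limma adjusted p = 2.0e-05). Both genes had every SKO+Flag array above both GFP arrays. Insig1, which retains SCAP and is itself an SREBP target, measured 9.46 and 9.55 on day 10 and 9.49 and 9.66 on day 6 in SKO+Flag, against 8.47 and 9.40 in GFP (0.60 ± 0.07, limma adjusted p = 3.0e-05). The SKO+Flag and GFP values of Insig1 were close at day 6 and far apart at day 10. Stard4, a carrier of sterols in the cytosol, was 0.66 ± 0.08 higher. Scap went the other way, with 7.76 and 7.69 on day 10 and 7.77 and 7.76 on day 6 in SKO+Flag, against 8.02 and 8.05 in GFP. Its difference was -0.29 ± 0.05, again without overlap (limma adjusted p = 0.0015).

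Among the fatty acid genes Scd1 stood out from the rest. Scd1, the stearoyl-CoA desaturase, measured 10.11 and 10.18 on day 10 and 10.05 and 10.16 on day 6 in SKO+Flag, against 8.19 and 8.77 in GFP. Its 1.65 ± 0.05 (3.13-fold, limma adjusted p = 1.0e-09) was the largest difference of the 30 genes in this comparison. Its paralog Scd2 was 0.41 ± 0.06 higher, and whether probes of these related genes cross-hybridise was not checked. Fads1, the delta-5 desaturase, was 0.24 ± 0.08 higher (limma adjusted p = 0.044), and this call was lost in 6 of 11 alternative fits. Fads2, the delta-6 desaturase, was lower, with 8.52 and 8.49 on day 10 and 8.46 and 8.32 on day 6 in SKO+Flag, against 8.58 and 8.69 in GFP. That difference, -0.19 ± 0.06 without overlap (limma adjusted p = 0.029), was lost in 4 of the 11. Acly, which supplies cytosolic acetyl-CoA, had 0.07 ± 0.06, Acaca, acetyl-CoA carboxylase, 0.02 ± 0.05, Fasn, fatty acid synthase, 0.20 ± 0.08, and Elovl6, an elongase of saturated chains, -0.05 ± 0.09; none of these passed the test. The probe sets of Acaca disagreed, since the second averaged 6.86 in SKO+Flag and 7.13 in GFP, where the chosen one averaged 7.56 and 7.55. At day 10 Fasn averaged 8.63 in SKO+Flag, against 8.23 on the GFP array (0.40 ± 0.11, limma adjusted p = 0.0159), and the call was lost in 1 of 9 alternative fits, with the compared groups alone. At day 6 Fasn averaged 8.65 in SKO+Flag, against 8.66 in GFP.

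The other SKO vectors were set against the same GFP arrays, so these values are not independent of those above. In SKO+HDAC7, 23 genes were higher and 3 lower than in GFP (17.5% and 15.9% of all genes), with a median of 0.43. In SKO+MEF2C, 23 were higher and 2 lower (16.6% and 14.6% of all genes), with a median of 0.48. The 11 genes from squalene to cholesterol were higher in both. At day 10, 21 genes were higher and 2 lower in SKO+HDAC7 (15.2% and 12.8% of all genes), and 22 and 0 in SKO+MEF2C (12.8% and 10.1%). At day 6, 14 were higher and 2 lower in SKO+HDAC7 (12.7% and 11.4%), and 13 and 1 in SKO+MEF2C (12% and 8.77%). Scd1 differed from GFP by 1.54 ± 0.05 in SKO+HDAC7, by 1.48 ± 0.05 in SKO+MEF2C and by 1.65 ± 0.05 in SKO+Flag. Acaca was lower than GFP in SKO+HDAC7 (-0.16 ± 0.05, limma adjusted p = 0.044). Fasn was called higher in the same comparison, with means of 8.70 in SKO+HDAC7 and 8.44 in GFP. The Acaca and Fasn calls were each lost in at least 1 of 11 alternative fits. Acly and Mvd were higher than GFP in SKO+MEF2C, by 0.21 ± 0.06 and 0.26 ± 0.06, and the Acly call was lost after quantile normalization (limma adjusted p = 0.232). GFP had the lowest vector mean in 23 of the 30 genes, and the share of all genes with this order is not given here.

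Other genes moved along with this contrast. All 11 measured proliferation genes were higher in SKO+Flag than in GFP, with a list mean of 8.26 to 8.52 in SKO+Flag and 7.68 to 7.74 in GFP, and 10 of 12 fibroblast markers were lower. Of 10 epithelial markers, 5 were higher and none lower. The part of these shifts in the lipid gene differences was not tested.

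**Figure D2:**
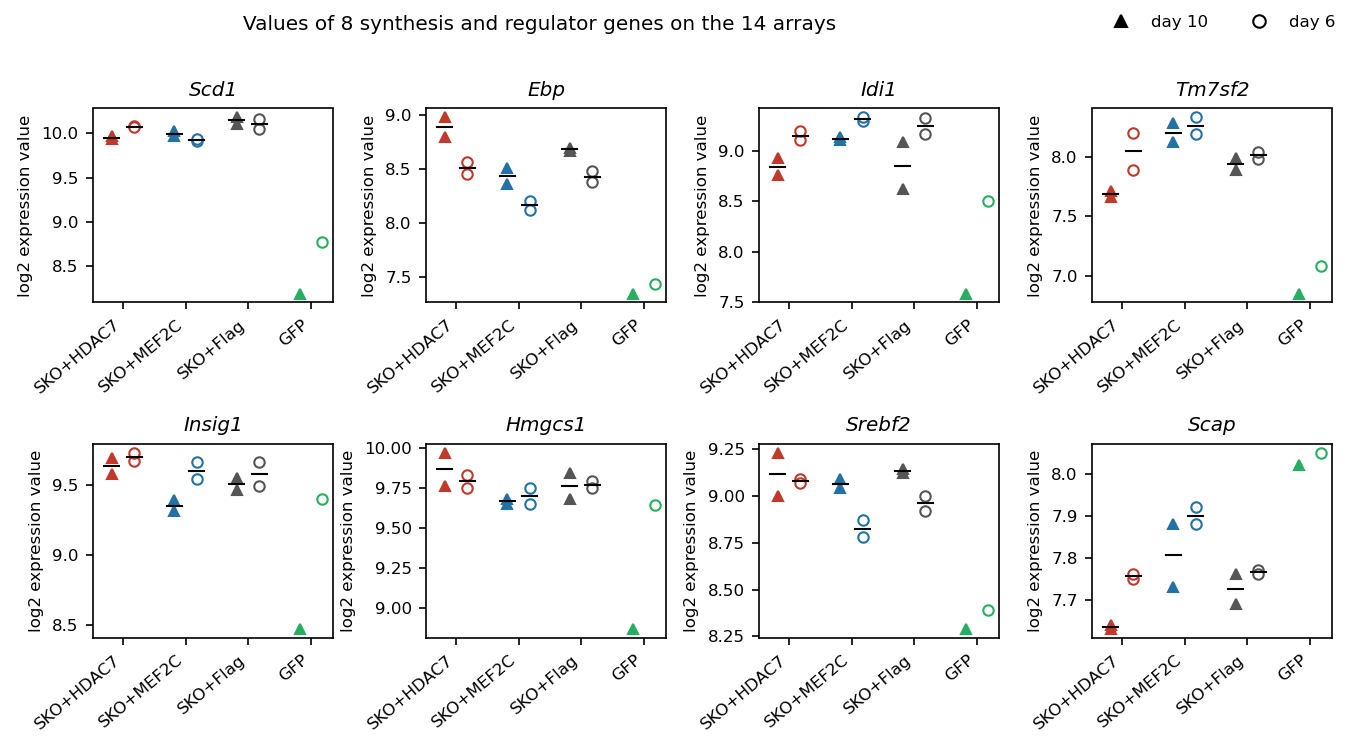
Log2 value (vertical axis) of 8 genes on each of the 14 arrays, by vector along the horizontal axis in the order SKO+HDAC7, SKO+MEF2C, SKO+Flag and GFP, with triangles for day 10, circles for day 6 and dashes for the mean of 2 arrays. For Idi1 and Insig1 the day 10 GFP array, at 7.58 and 8.47, lies well below the day 6 one, at 8.50 and 9.40, while Ebp and Scd1 are low on both GFP arrays.

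The GFP arrays themselves differed between days, and every comparison with GFP uses them. At day 10, 29 of the 30 genes were lower than at day 6, 10 of them by 0.5 or more and none higher by that much, where 0.973% of all genes were lower and 2.20% higher by 0.5 or more. The median difference was -0.37 for the 30 genes and -0.01 for all genes. With the spread of the GFP arrays taken from the other groups, a test added after seeing the data, limma called 13 of the 30 genes lower and 0 higher, where 1.17% of all genes were lower and 2.51% higher. The 13 were 7 of 11 genes from squalene to cholesterol and 2 each of the mevalonate, SREBP system and desaturation groups, and none of the 3 fatty acid synthesis genes. Msmo1 had -0.91 ± 0.10 and Insig1 -0.93 ± 0.11. The 6 alternative fits of this comparison reused the same GFP arrays, so they could not show whether a GFP array was unusual. Insig1 lay at 8.47 at day 10 and 9.40 at day 6, Idi1 at 7.58 and 8.50, and Msmo1 at 9.50 and 10.41. The days lay closer together for 3 regulators. Srebf2 lay at 8.29 at day 10 and 8.39 at day 6, Srebf1 at 7.29 and 7.40, and Scap at 8.02 and 8.05. Dhcr7 was the exception to the direction, at 7.23 at day 10 and 7.0 at day 6. Over the same arrays the fibroblast list mean was 10.73 at day 10 and 10.24 at day 6, and the proliferation list 7.68 and 7.74. The difference between SKO+Flag and GFP was larger at day 10 for 11 of the 30 genes and smaller for none (limma test of the change, where 1.9% of all genes were higher and 3.16% lower). Fitted to the SKO+Flag and GFP arrays alone, the test called 0 of these 11.

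**Figure D3:**
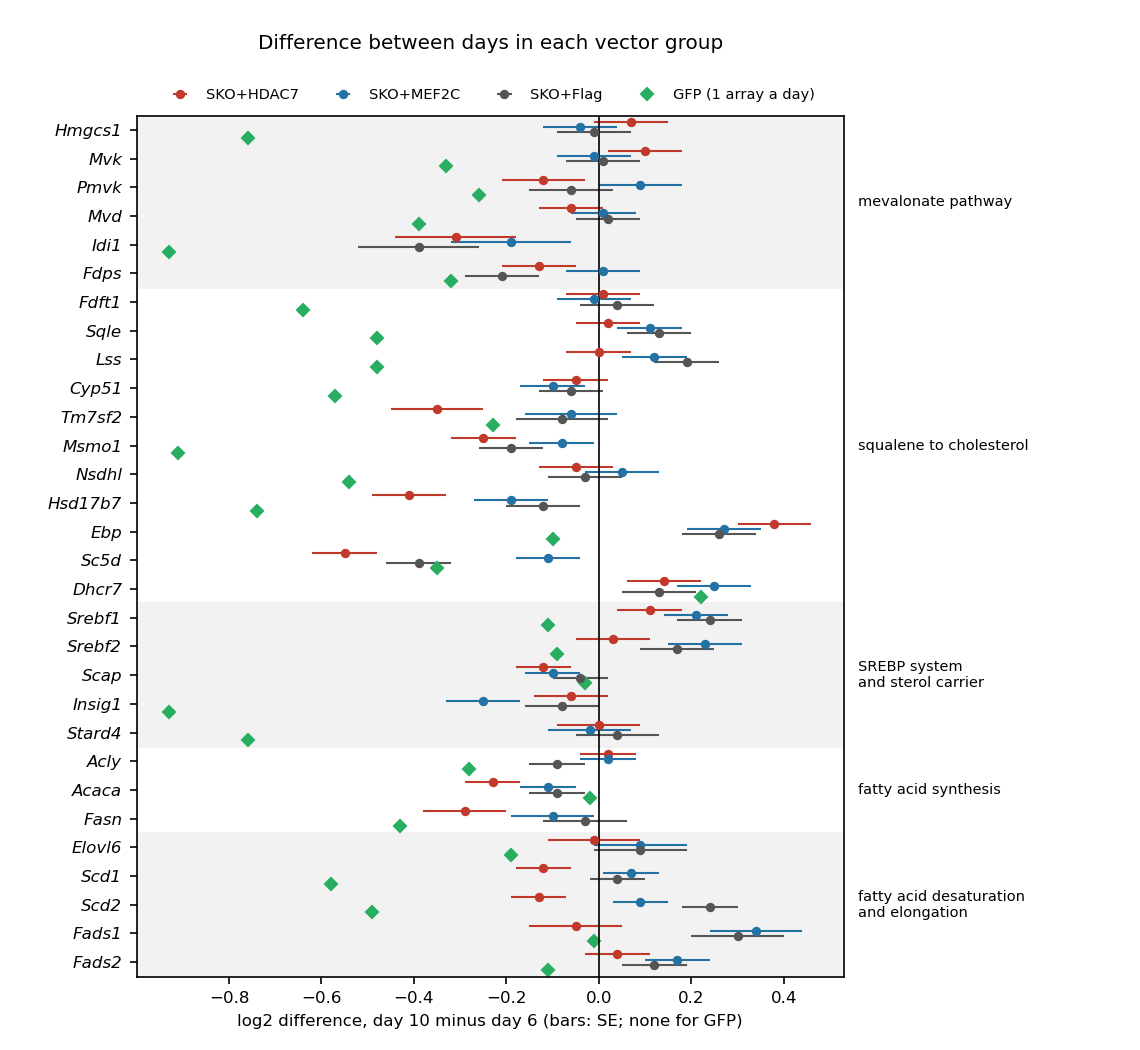
Log2 difference, day 10 minus day 6, of each gene (vertical axis, by role) in SKO+HDAC7, SKO+MEF2C, SKO+Flag and GFP; bars are SE, and GFP has 1 array a day and no bar. The GFP points lie left of 0 for all genes but Dhcr7, and Sc5d lies left of 0 in SKO+HDAC7 and SKO+Flag.

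Few of these genes were called when SKO with HDAC7 or MEF2C was compared with the empty vector. The shares of all genes called were small as well. In SKO+HDAC7 against SKO+Flag, 1 gene was higher and 1 lower (limma), where 4.83% of all genes were higher and 6.06% lower. The median was -0.03. Stard4 measured 8.14 and 8.19 on day 10 and 8.18 and 8.17 on day 6 in SKO+HDAC7, against 7.84 and 8.06 on day 10 and 8.01 and 7.80 on day 6 in SKO+Flag. Stard4 was thus 0.24 ± 0.06 higher without overlap (limma adjusted p = 0.034). Acaca measured 7.32 and 7.22 on day 10 and 7.52 and 7.48 on day 6 in SKO+HDAC7, against 7.48 and 7.55 on day 10 and 7.65 and 7.57 on day 6 in SKO+Flag. It was lower within each day (-0.18 ± 0.04, limma adjusted p = 0.028), although the ranges over both days overlapped. Each of these calls was lost in 8 of 17 alternative fits, and the Acaca call with the mean over its 2 probe sets. After median centring 0 genes were higher and 5 lower (3.2% and 7.62% of all genes), and after quantile normalization 3 were higher and 0 lower (5.08% and 6.02% of all genes). At day 10, 0 were higher and 2 lower (3.33% and 3.95% of all genes), Scd2 with -0.32 ± 0.06 (limma adjusted p = 0.012) and Acaca with -0.25 ± 0.06 (limma adjusted p = 0.04). At day 6 none was called by limma, where 1.82% of all genes were higher and 2.76% lower, and 7 had an unadjusted p under 0.05.

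In SKO+MEF2C against SKO+Flag, 1 gene was higher and 3 lower (limma), where 5.49% and 4.82% of all genes were, with a median of -0.02. Fads1 measured 9.45 and 9.45 on day 10 and 9.23 and 8.99 on day 6 in SKO+MEF2C, against 9.78 and 9.77 on day 10 and 9.55 and 9.39 on day 6 in SKO+Flag. Within each day both SKO+MEF2C arrays were below both SKO+Flag arrays (-0.34 ± 0.07, limma adjusted p = 0.0081), and this call was kept in all 17 alternative fits. Ebp measured 8.36 and 8.51 on day 10 and 8.21 and 8.12 on day 6 in SKO+MEF2C, against 8.70 and 8.67 on day 10 and 8.38 and 8.48 on day 6 in SKO+Flag (-0.26 ± 0.06, limma adjusted p = 0.015). Scd1 was 0.17 lower (-0.17 ± 0.04, limma adjusted p = 0.031), and Tm7sf2 was higher, with 8.12 and 8.28 on day 10 and 8.33 and 8.19 on day 6 in SKO+MEF2C, against 7.99 and 7.89 on day 10 and 7.98 and 8.04 on day 6 in SKO+Flag (0.26 ± 0.07, limma adjusted p = 0.041). The call was lost in 3 of 17 alternative fits for Ebp, 7 for Scd1 and 9 for Tm7sf2. None of the 30 passed limma's test at either day alone, with 8 unadjusted p under 0.05 at day 10 and 6 at day 6. Of all genes, 4% were higher and 3% lower at day 10, and 1.33% higher and 1.77% lower at day 6.

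Among the SKO vectors the contrast of SKO+HDAC7 with SKO+MEF2C gave the most calls. Here 7 of the 30 genes were higher and 8 lower in SKO+HDAC7 (limma), where 10.3% of all genes were higher and 11.8% lower, and the median was -0.01. Both shares exceeded those of all genes, but the 2 sets differ in level. All 30 genes lay at percentile 74.4 or above by mean level, while the shares of all genes include dimmer genes. Shares among all genes of like level are not given here. From squalene to cholesterol 1 of 11 genes was higher and 5 lower, and in the SREBP system 3 of 5 were higher and 1 lower. Fatty acid desaturation and elongation had 2 of 5 higher and none lower, fatty acid synthesis 1 of 3 each way, and the mevalonate pathway 1 of 6 lower. Whether the role groups differ from one another was not tested. SKO+Flag had a mean between those of SKO+HDAC7 and SKO+MEF2C in 22 of the 30 genes. The share of all genes with this order is not given here, so it cannot be called particular to the 30. All 11 proliferation genes were higher in SKO+HDAC7 as well, with a list mean of 8.62 to 8.66 in SKO+HDAC7 and 8.10 to 8.22 in SKO+MEF2C, and 6 of 10 epithelial markers were higher; their part in the lipid gene differences was not tested.

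Higher in SKO+HDAC7 were a desaturase, an isomerase and regulators. Fads1 measured 9.79 and 9.55 on day 10 and 9.73 and 9.71 on day 6 in SKO+HDAC7, against 9.45 and 9.45 on day 10 and 9.23 and 8.99 on day 6 in SKO+MEF2C. The ranges were apart (0.41 ± 0.07, 1.33-fold, limma adjusted p = 0.0011). Ebp measured 8.80 and 8.98 on day 10 and 8.57 and 8.46 on day 6 in SKO+HDAC7, against 8.36 and 8.51 on day 10 and 8.21 and 8.12 on day 6 in SKO+MEF2C (0.40 ± 0.06, limma adjusted p = 0.0004). It was the only called gene of its route in this direction, and it was higher within each day. Elovl6 measured 8.46 and 8.28 on day 10 and 8.36 and 8.41 on day 6 in SKO+HDAC7, against 8.11 and 8.02 on day 10 and 8.04 and 7.91 on day 6 in SKO+MEF2C (0.35 ± 0.07, limma adjusted p = 0.0044). Srebf1 measured 8.17 and 8.04 on day 10 and 7.93 and 8.06 on day 6 in SKO+HDAC7, against 7.90 and 7.88 on day 10 and 7.65 and 7.71 on day 6 in SKO+MEF2C (0.27 ± 0.05, limma adjusted p = 0.0021). Neither Elovl6 nor Srebf1 overlapped between these vectors. Stard4 was 0.26 ± 0.06 higher, with SKO+MEF2C at 7.83 and 7.96 at day 10 and 7.95 and 7.88 at day 6, below all the SKO+HDAC7 values given above. Fasn, at 0.22 ± 0.06, and Insig1, at 0.20 ± 0.06, were also higher, and their calls were lost in 5 and 4 of 17 alternative fits. Srebf2 was 0.15 ± 0.05 higher and did not pass (limma adjusted p = 0.074).

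**Figure D4:**
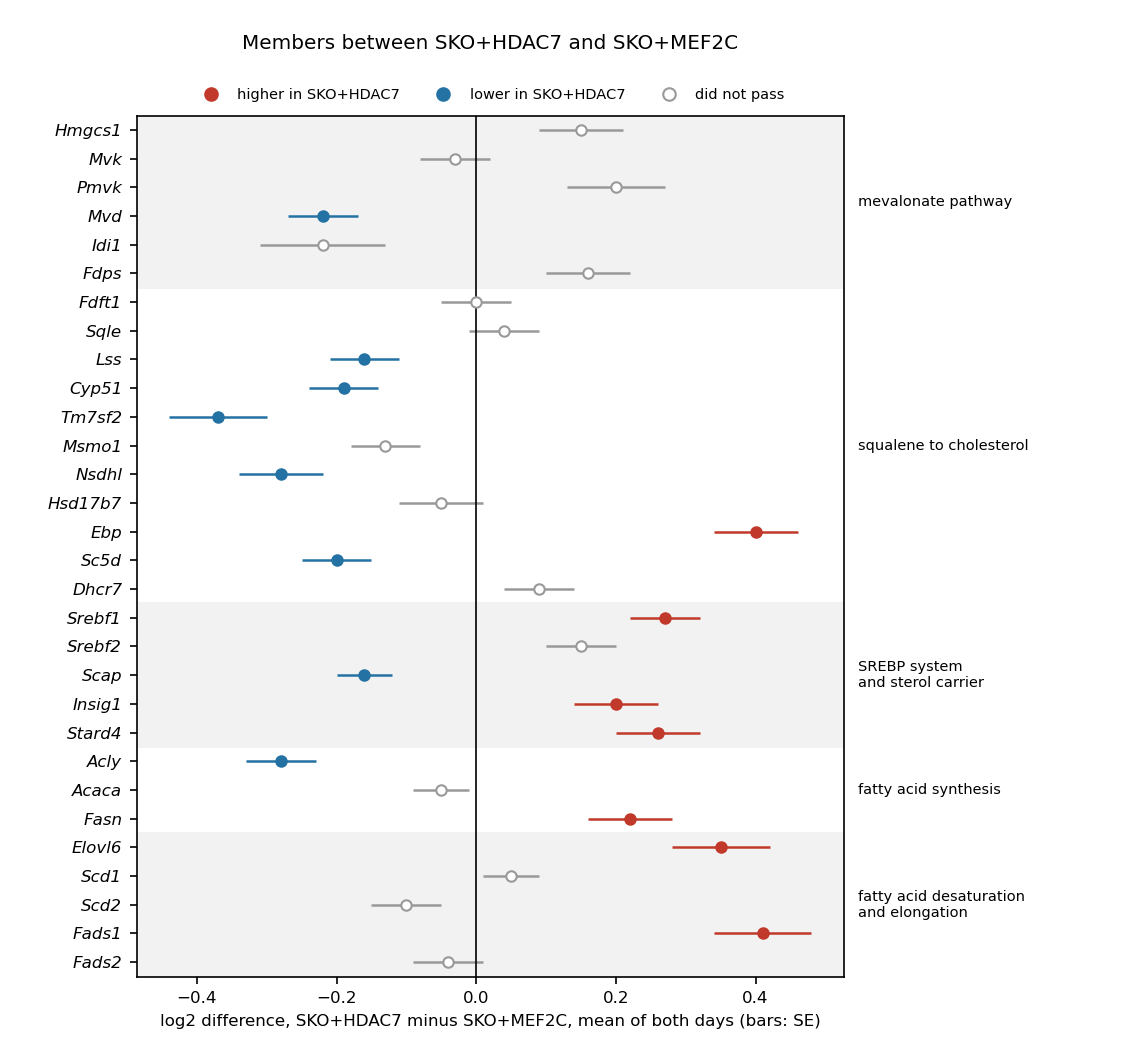
Log2 difference SKO+HDAC7 minus SKO+MEF2C (horizontal axis, mean of both days, bars are SE) for each of the 30 genes by role, red where higher, blue where lower in SKO+HDAC7 and open where the test was not passed. Tm7sf2, at -0.37, lies farthest left, and Fads1, at 0.41, and Ebp, at 0.40, farthest right.

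Lower in SKO+HDAC7 were Tm7sf2 and other genes of the route from squalene. Tm7sf2 measured 7.71 and 7.66 on day 10 and 8.20 and 7.89 on day 6 in SKO+HDAC7, against 8.12 and 8.28 on day 10 and 8.33 and 8.19 on day 6 in SKO+MEF2C (-0.37 ± 0.07, limma adjusted p = 0.003). The vectors overlapped at day 6 and not at day 10. Nsdhl measured 8.38 and 8.51 on day 10 and 8.50 and 8.50 on day 6 in SKO+HDAC7, against 8.71 and 8.86 on day 10 and 8.69 and 8.77 on day 6 in SKO+MEF2C (-0.28 ± 0.06, limma adjusted p = 0.0043). Every SKO+HDAC7 value of Nsdhl was below every SKO+MEF2C value. Acly, with 8.74 and 8.73 on day 10 and 8.72 and 8.71 on day 6 in SKO+HDAC7, against 8.99 and 9.05 on day 10 and 9.01 and 8.98 on day 6 in SKO+MEF2C, did not overlap either (-0.28 ± 0.05, limma adjusted p = 0.00097). The remaining genes lower in SKO+HDAC7 were Mvd (-0.22 ± 0.05), Sc5d (-0.20 ± 0.05), Cyp51 (-0.19 ± 0.05), Lss (-0.16 ± 0.05) and Scap (-0.16 ± 0.04). Scap measured 7.63 and 7.64 on day 10 and 7.75 and 7.76 on day 6 in SKO+HDAC7, against 7.73 and 7.88 on day 10 and 7.92 and 7.88 on day 6 in SKO+MEF2C. Of the 15 called genes, 9 kept their call in all 17 alternative fits: Mvd, Tm7sf2, Nsdhl, Ebp, Srebf1, Stard4, Acly, Elovl6 and Fads1. The Sc5d call was lost only without 1 SKO+MEF2C array of day 10 (limma adjusted p = 0.0501). After quantile normalization 11 genes were higher and 6 lower, and the shares of all genes under that normalization are not given here.

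Within single days the same contrast gave fewer calls. At day 10, 2 genes were higher and 5 lower (7.46% and 8.55% of all genes), among them Tm7sf2 at -0.51 ± 0.10, Ebp at 0.46 ± 0.08, Sc5d at -0.42 ± 0.07 and Nsdhl at -0.34 ± 0.08. Sc5d lay at 8.44 and 8.50 in SKO+HDAC7 and at 8.81 and 8.97 in SKO+MEF2C at that day. At day 6, 5 were higher and 1 lower (5.68% and 6.98% of all genes), with Fads1 at 0.61 ± 0.10, Elovl6 at 0.40 ± 0.10, Ebp at 0.35 ± 0.08 and Srebf1 at 0.32 ± 0.07. The counts moved with scaling: after quantile normalization 5 were higher and 7 lower at day 10, and 10 higher and 0 lower at day 6. The shares of all genes under that normalization are not given here, so these counts have no background beside them.

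Of the SKO vectors, SKO+HDAC7 had the most calls between days, where 1 gene was higher and 6 lower at day 10 than at day 6 (limma; 7.86% and 6.7% of all genes), with 4 of the 6 in the route from squalene. Sc5d measured 8.44 and 8.50 on day 10 and 9.04 and 9.01 on day 6 (-0.55 ± 0.07, limma adjusted p = 0.00028). Hsd17b7 measured 8.25 and 8.30 on day 10 and 8.82 and 8.55 on day 6 (-0.41 ± 0.08, limma adjusted p = 0.0068). Neither overlapped between days. Ebp measured 8.80 and 8.98 on day 10 and 8.57 and 8.46 on day 6, and was the one gene that rose (0.38 ± 0.08, limma adjusted p = 0.01). Tm7sf2 (-0.35 ± 0.10), Fasn (-0.29 ± 0.09), Msmo1 (-0.25 ± 0.07) and Acaca (-0.23 ± 0.06) were lower. The calls other than Sc5d were each lost in 1 to 7 of 12 alternative fits. In the same cells 7 of 16 fatty acid oxidation genes rose and none fell, led by Acadm at 0.57 ± 0.06, the medium-chain acyl-CoA dehydrogenase. Against GFP, Acadm in SKO+HDAC7 had -0.79 ± 0.08 at day 6 and -0.05 ± 0.08 at day 10. Of this list only Slc25a20 and Etfdh were called higher than GFP at day 10 (15.2% of all genes were). In SKO+HDAC7 8 of 10 epithelial markers also rose between days, Epcam by 2.95 ± 0.10. The part of the epithelial shift was not tested.

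In SKO+Flag 1 gene was higher and 1 lower at day 10 than at day 6 (3.75% and 4.33% of all genes). Sc5d measured 8.64 and 8.70 on day 10 and 9.03 and 9.08 on day 6 (-0.39 ± 0.07, limma adjusted p = 0.0042), and Scd2 measured 11.19 and 11.13 on day 10 and 10.96 and 10.89 on day 6 (0.24 ± 0.06, limma adjusted p = 0.0499). The Scd2 call was lost in 11 of 14 alternative fits. In SKO+MEF2C none was called by limma (1.85% and 1.23% of all genes higher and lower), and 8 had an unadjusted p under 0.05. For the change between days of the HDAC7 effect and of the MEF2C effect over SKO+Flag, limma called 0 of the 30 genes, with 3 and 1 unadjusted p under 0.05. Of all genes, 0.0401% and 0.0853% were higher and lower for HDAC7, and 0.0451% and 0.0401% for MEF2C.

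Genes that neighbour these pathways were read from lists; between SKO+Flag and GFP, as above, 17.5% of all genes were higher and 18.2% lower. Of 6 measured genes among 9 listed for other sterol and isoprenoid synthesis, none was higher and 1 lower in SKO+Flag than in GFP, with a median of -0.05. The list mean lay between 6.99 and 7.07 in SKO+Flag and between 7.07 and 7.18 in GFP. The gene that fell was Erg28, whose yeast relative holds sterol enzymes together, with 8.57 and 8.71 on day 10 and 8.62 and 8.71 on day 6 in SKO+Flag, against 9.26 and 9.07 in GFP (-0.51 ± 0.06, limma adjusted p = 7.4e-05). Erg28 was called lower at each day alone as well, and no gene of this list was called higher at either day. In SKO+Flag against GFP the cholesterol efflux and LXR list had 1 of 10 genes higher and 7 lower. The gene that rose was Abca1, the exporter of cholesterol to apolipoproteins, with 9.53 and 9.68 on day 10 and 9.55 and 9.48 on day 6 in SKO+Flag, against 6.97 and 6.77 in GFP (2.69 ± 0.07, limma adjusted p = 2e-10). Mylip, a ligase that degrades lipoprotein receptors, fell by 0.81 ± 0.06, Lipa, lysosomal acid lipase, by 0.69 ± 0.07 and Apoe by 0.57 ± 0.09. Of 16 other lipogenic genes 8 were higher and 1 lower, with Pnpla3 at 0.63 ± 0.07, Acss2, an acetyl-CoA synthetase, at 0.61 ± 0.06 and Fads3 at -0.79 ± 0.05. Fatty acid oxidation had 2 of 16 higher and 4 lower, with Slc25a20, the carnitine carrier, at 0.78 ± 0.07, shares of 12.5% and 25%. None of 6 genes of SREBP processing and sterol sensing passed limma's test as the mean of both days, and none had an unadjusted p under 0.05. At day 10 Insig2, a relative of Insig1, was higher (0.31 ± 0.09, limma adjusted p = 0.026), with 8.24 and 8.33 in SKO+Flag and 7.98 in GFP. Against SKO+MEF2C, SKO+HDAC7 had Me1, malic enzyme, lower (-0.66 ± 0.05), Abca1 higher (0.63 ± 0.05) and Pnpla3 higher (0.44 ± 0.06). In this contrast 10.3% of all genes were higher and 11.8% lower. These genes were picked from their lists, and the list counts for this contrast are not given here.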

How the data were processed

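Expression was measured on 14 arrays, 1 per RNA sample, in 8 groups of vector by day. Per the submitters' processing notes RMA and Partek were used, without versions. Each probe set has a log2 expression value, used as deposited. The genome build of the array annotation is not given in the sources used here. Of 28815 probe sets, 21780 had 1 gene symbol, 1605 several and 5430 none here. Symbols were checked through Entrez IDs against RefSeq (21689 matched, 91 did not, 0 changed). For 998 genes with several probe sets the brightest was used. One limma group-means model (R 4.3.3, limma 3.58.1; 6 residual and 4.71 prior degrees of freedom) was fitted to all arrays. The number of arrays limits the precision. The members, lists and rule for named genes were chosen with earlier results of these data known. Values on every array are given for the called genes with the largest differences, for Srebf1, Srebf2, Scap and Insig1, and for genes opposite to their role group. Related lists are given as counts, with at most 4 called genes named in each. Alternatives were quantile normalization, median centring, the mean over probe sets, a robust prior, genes brighter than the median, array weights, the compared groups alone, the experiment number as a block, and leaving out each array. The procedure was tested on simulated data. Experiment numbers showed no clear pairing of the samples, and the labels do not settle it. Deviations correlated over 0.1 in 4 of 15 pairs of groups (range -0.22 to 0.20). Among the 6 same-day pairs, 3 were over 0.1 (range -0.1 to 0.20). No replicate arrays were identical (SD of differences 0.12 to 0.172).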

Additional observations from a re-analysis of the deposited data

Results flagged for a closer look

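The difference between SKO+Flag and GFP changed between days for 11 of the 30 genes, all toward a larger difference at day 10 (limma test of the change, where 1.9% of all genes were higher and 3.16% lower). The change, day 10 minus day 6, was 0.85 for Insig1, 0.80 for Stard4, 0.75 for Hmgcs1, 0.72 for Msmo1, 0.72 for Scd2 and 0.68 for Fdft1. It was 0.67 for Lss, 0.62 for Hsd17b7, 0.62 for Scd1, 0.60 for Sqle and 0.51 for Cyp51. Each value rests on 1 GFP array a day. In the SKO+Flag arrays Insig1 measured 9.46 and 9.55 on day 10 and 9.49 and 9.66 on day 6, while GFP lay at 8.47 at day 10 and 9.40 at day 6. Stard4 measured 7.84 and 8.06 on day 10 and 8.01 and 7.80 on day 6 in SKO+Flag, against 6.89 and 7.64 in GFP. Hmgcs1 measured 9.68 and 9.84 on day 10 and 9.79 and 9.75 on day 6 in SKO+Flag, against 8.87 and 9.64 in GFP. In these 3 genes the day 10 GFP array was the low one, and the SKO+Flag arrays of the 2 days overlapped. When only the SKO+Flag and GFP arrays were fitted, limma called 0 of the 11 and 206 of all genes, against 1008.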

How the results depend on the processing

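Among 192 named gene results, the 2192 alternative values included 1968 with the same direction and call, 221 that lost the call, 3 that gained it and 0 that changed direction. Counts below are of the 30 genes unless all genes are named, with the reported count in parentheses. For many of them the share of all genes called under the same setting is not given here. Such a count has no background beside it and shows only that the calls depend on the setting. The cause was not tested where a setting kept the same arrays and genes. With array weights the calls were 1 for SKO+HDAC7 against SKO+Flag at day 10 (2 as reported), 13 for SKO+HDAC7 against SKO+MEF2C at day 10 (7), 1 for day 10 against day 6 in SKO+Flag (2), 994 of all genes for day 10 against day 6 in SKO+MEF2C (614) and 16 of all genes for the change of the HDAC7 effect between days (25). With the compared groups alone they were 0 for SKO+HDAC7 against SKO+Flag over both days and 0 at day 10, with 501 of all genes at day 10 (1450) and 375 at day 6 (914). For SKO+MEF2C against SKO+Flag, 502 of all genes were called at day 10 (1397) and 351 at day 6 (618), and 3012 for SKO+Flag against GFP at day 10 (5359). Day 10 against day 6 gave 4 in SKO+HDAC7 (7) and 0 in SKO+Flag, with 504 of all genes (1610). The changes between days gave 2 of all genes for HDAC7 (25), 1 for MEF2C (17), and 206 of all genes and 0 of the 30 for SKO+Flag against GFP (1008 and 11). Among genes above the median level the calls were 4 for SKO+HDAC7 against SKO+Flag, 1 at day 10 and 1 at day 6 for SKO+MEF2C against SKO+Flag (0 each), 13 for SKO+HDAC7 against SKO+MEF2C at day 10, 5 for day 10 against day 6 in SKO+Flag, and 69 and 45 of all genes for the changes of the HDAC7 and MEF2C effects. With the robust prior they were 4 for SKO+HDAC7 against SKO+Flag and 1 at day 10, 1 at each day for SKO+MEF2C against SKO+Flag, 11 for SKO+HDAC7 against SKO+MEF2C at day 10, 1 for day 10 against day 6 in SKO+MEF2C, 4 in SKO+Flag, and 66 and 44 of all genes for the changes of the HDAC7 and MEF2C effects. The mean over probe sets gave 1 for SKO+HDAC7 against SKO+Flag over both days and 1 at day 10. Median centring gave 5 for SKO+HDAC7 against SKO+Flag, 4 for day 10 against day 6 in SKO+HDAC7 and 1 in SKO+Flag. It also moved the split of all genes in SKO+HDAC7 against SKO+Flag to 637 higher and 1519 lower (963 and 1208), at day 10 to 465 and 856 (663 and 787) and at day 6 to 235 and 708 (363 and 551), and the changes between days to 9 and 9 for HDAC7 (8 and 17) and 6 and 11 for MEF2C (9 and 8). Quantile normalization gave 1 for SKO+HDAC7 against SKO+Flag at day 6, 1 for SKO+MEF2C against SKO+Flag at day 10, 12 at day 10 and 10 at day 6 for SKO+HDAC7 against SKO+MEF2C (7 and 6), and 63 of all genes for the change of the HDAC7 effect.

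The experiment numbers showed no clear pairing of the samples. With the replicate block over the SKO arrays the calls were 1 for SKO+HDAC7 against SKO+Flag at day 10, 1 at day 10 and 1 at day 6 for SKO+MEF2C against SKO+Flag, 1 for day 10 against day 6 in SKO+MEF2C, and 15 of all genes for the change of the HDAC7 effect. With the replicate block within each day they were 1 for SKO+HDAC7 against SKO+Flag at day 10, 1 for SKO+MEF2C against SKO+Flag at day 10, and 15 and 11 of all genes for the changes of the HDAC7 and MEF2C effects. In the SKO+Flag arrays alone, where the numbers correlated at -0.22 between days, a crossed block, chosen after seeing the data, gave 0 and 625 of all genes for day 10 against day 6, and the replicate block as numbered gave 0 and 146.

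Leaving out each array gave calls of 0 to 2 of the 30 for SKO+HDAC7 against SKO+Flag over both days, 293 to 460 of all genes for SKO+HDAC7 against SKO+Flag at day 6, 1 to 5 of the 30 for SKO+MEF2C against SKO+Flag over both days, 157 to 268 of all genes for SKO+MEF2C against SKO+Flag at day 6. It gave 1 to 2 of the 30 and 944 to 1905 of all genes for day 10 against day 6 in SKO+Flag, 0 to 483 of all genes for the change between days of SKO+HDAC7 against SKO+Flag, 2 to 213 of all genes for the change between days of SKO+MEF2C against SKO+Flag, 0 to 1 of the 30 and 785 to 1484 of all genes for SKO+HDAC7 against SKO+Flag at day 10. It gave 0 to 1 of the 30 and 691 to 1421 of all genes for SKO+MEF2C against SKO+Flag at day 10, 2 to 4 of the 30 and 1313 to 1747 of all genes for SKO+HDAC7 against SKO+MEF2C at day 6, 2 to 5 of the 30 and 1571 to 2063 of all genes for day 10 against day 6 in SKO+HDAC7, 3 to 6 of the 30 for SKO+HDAC7 against SKO+MEF2C at day 10. It gave 250 to 317 of all genes for day 10 against day 6 in SKO+MEF2C. Leaving out a GFP array removes a group, so the comparisons with GFP over both days and at that day have no value. Day 10 against day 6 in GFP, added after seeing the data, called 12 to 14 genes over 6 alternatives (13 as reported), and could not be fitted with the compared groups alone.
The SKO+HDAC7 against SKO+MEF2C count over both days was 11 to 13 without each array, and those against GFP over both days 22 to 25. Signal over background was not available here, so no dim probe set was set apart.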
